A study of Mus musculus with 6 samples.

Results

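*Ldha*, *Slc16a1*, *Hk1*, *Acot7*, *Oat*, *Smad3*, *Mgst1* and *Aldh1a3* are 8 genes used as signs of lost beta-cell identity, and they were looked up by symbol and by Ensembl identifier among the 13535 genes measured in sorted mouse beta-cells. *Oat* was found, and the other 7 genes have no row in the table and were not analysed here, so 1 of 8 genes could be followed. All cells came from wild type (WT) C57BL/6JRj male mice aged 12 weeks. Sorted islet cells were reaggregated for 5 days either as pseudo-islets, which hold alpha-, beta- and delta-cells, or as pseudo-beta, which hold beta-cells only, and beta-cells were then sorted again by FACS, with antibodies to CD24, CD49f, CD71 and CD81, and sequenced. There were 3 samples of each kind, from experiments numbered 35, 36 and 37. No sample of uncultured beta-cells was among them, so the values compare both kinds of culture at day 5 and do not measure a change over the 5 days.

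A disallowed gene is one that most tissues express and that mature beta-cells keep at a very low level. The best known are *Ldha*, a subunit of lactate dehydrogenase, and *Slc16a1*, the monocarboxylate transporter MCT1, whose repression keeps circulating pyruvate and lactate from triggering insulin release. *Hk1* encodes a hexokinase with a high affinity for glucose, and its repression is thought to keep beta-cells from responding at low glucose. *Acot7* encodes an acyl-CoA thioesterase, *Mgst1* a microsomal glutathione transferase, *Smad3* a transducer of TGF-beta and activin signals, and *Oat* the mitochondrial ornithine aminotransferase, which links ornithine to glutamate and proline. *Aldh1a3* encodes a retinaldehyde dehydrogenase that is used as a marker of dedifferentiated beta-cells.

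In the table, each gene reaches 10 normalized counts in 3 or more libraries, where a normalized count is a read count scaled between libraries by the authors. Of the 21951 protein-coding genes of the GENCODE M21 annotation, 11586 (52.8%) have a row, against 12.5% of the 8 genes. *Ldha* and *Aldh1a3* lie on chromosome 7 of GRCm38, from 46841475 to 46855627 and from 66390890 to 66427517. *Slc16a1* lies on chromosome 3 (104638668 to 104658462), *Acot7* on chromosome 4 (152178134 to 152271855) and *Mgst1* on chromosome 6 (138140316 to 138156755). *Smad3* lies on chromosome 9 (63646767 to 63757994) and *Hk1* on chromosome 10 (62268855 to 62379908). Their levels are unknown here, and a gene without a row is not shown to be silent.

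Further genes were grouped in lists drawn from general knowledge. Of 28 other genes that have been described as disallowed in beta-cells, 8 (28.6%) have a row. Of 16 genes of mature beta-cell function, such as the glucose transporter gene *Slc2a2*, all 16 have one. Rows exist for 11 of 19 other genes linked to dedifferentiation or to endocrine progenitors, and for 16 of 20 genes of lactate and pyruvate handling. The SMAD family has 6 of 7, the retinoic acid list 7 of 18, the acyl-CoA thioesterases 7 of 12, and the list of ornithine, proline and glutamate enzymes 11 of 13. The 8 genes and the other disallowed genes have the lowest shares of these lists, which is a description of the table and was not tested.

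**Figure D1:**
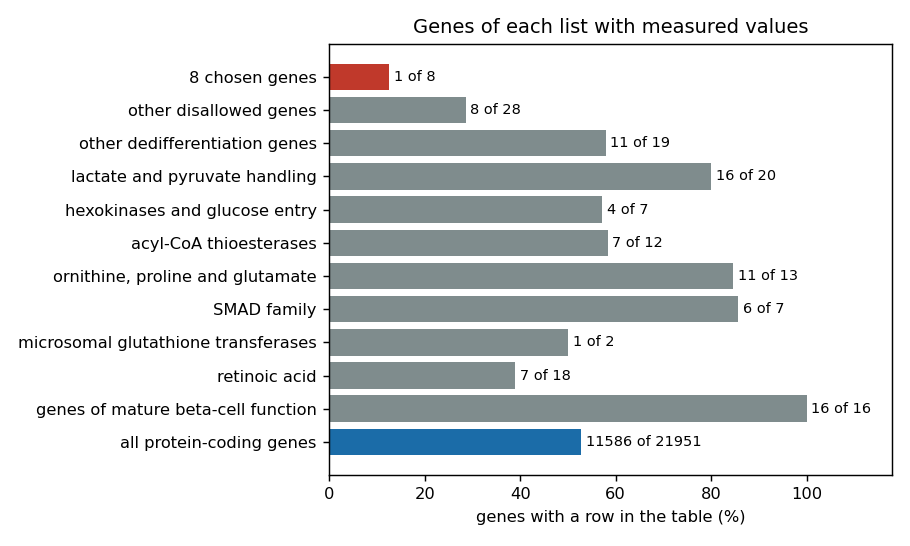
Share of the genes of each list that have a row in the table, in percent, with the counts beside each bar. The 8 chosen genes are in red at 12.5% and all protein-coding genes in blue at 52.8%, while the 16 genes of mature beta-cell function are complete.

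*Oat* (ENSMUSG00000030934) lies on the minus strand of chromosome 7 of GRCm38, from 132557478 to 132576398. It lies inside an intron of a long transcript of *Fgfr2* on the same strand, and 0 other genes have an exon that overlaps its exons. In the libraries of pseudo-islets it had 24.0, 40.6 and 27.5 normalized counts in experiments 35, 36 and 37. In pseudo-beta it had 37.4, 58.8 and 40.4. The pseudo-islets value was the lower one in 3 of 3 experiments, as for 15.0% of all genes. Experiment 36 had the highest value in both groups. The groups overlapped, because the pseudo-islets of experiment 36 were above the pseudo-beta of experiments 35 and 37. In bulk RNA such as this, fewer cells with a transcript and less of it per cell cannot be told apart.

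Pseudo-islets had a mean of 30.7 ± 8.72 normalized counts (SD, n = 3), against 45.5 ± 11.6 (SD, n = 3) for pseudo-beta. On the scale of log2(value + 1) the fold change of pseudo-islets over pseudo-beta was -0.56, with a standard error (SE) of 0.41 and a 95% interval from -1.48 to 0.36. It did not pass in limma (unadjusted p = 0.205, adjusted p = 0.99 by the Benjamini-Hochberg method across the table). Of all genes, 0.0591% were called in this fit, at an adjusted p under 0.05. The interval reaches beyond a 1.5-fold change, so a lower level of that size was within the error for *Oat* with 3 samples in each group. A two-sided exact permutation test over the 6 libraries gave p = 0.3, and the smallest p that it can give is 0.1.

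Within experiments, the ratio of pseudo-islets to pseudo-beta was 0.642, 0.689 and 0.682, and the log2 differences were -0.62, -0.53 and -0.54. These differences lay closer together than the levels did. A replicate block, by which limma sets each pseudo-islets sample against the pseudo-beta sample of its own experiment, left the estimate as it was. The standard error was 0.40 and the adjusted p = 0.646 with this block in limma, where 0.539% of all genes were called. This standard error rests largely on the other genes of low level, since limma shares the spread between genes, and its median was 0.44 for genes with a mean of 20 to 80 normalized counts. The exact test over the signs of the 3 differences cannot give a p under 0.25, and it gave p = 0.25.

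In each library, many low values are whole multiples of 1 step, which may be the worth of 1 read. The values of *Oat* came to 25.0, 39.0 and 27.0 steps in pseudo-islets, against 41.0, 65.0 and 34.0 in pseudo-beta, each within 0.02 of a whole number. If a step is 1 read, as few as 25 reads stand behind a value. Counting error alone then gives a standard error of 0.37, 0.29 and 0.37 for the log2 ratio in experiments 35, 36 and 37, and of 0.20 for their mean. Differences between animals or sorts come on top of it.

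**Figure D2:**
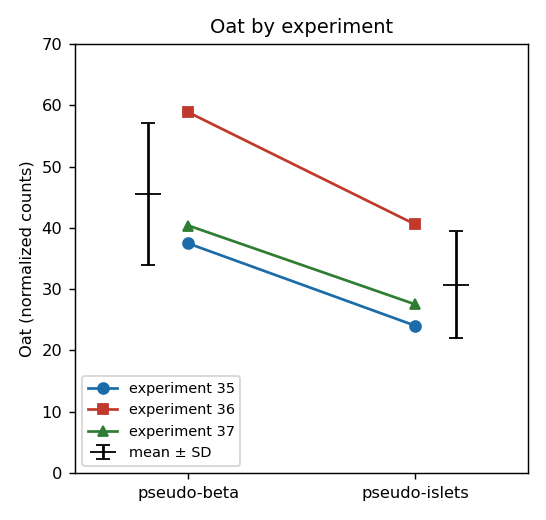
*Oat* in normalized counts in pseudo-beta and pseudo-islets, with 1 line for each experiment and the mean ± SD (n = 3) of each group in black. Each line ends lower at pseudo-islets, and the ranges of the groups, 24.0 to 40.6 and 37.4 to 58.8, overlap.

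Per kilobase of exon, *Oat* had a mean level of 17.7 normalized counts over the 6 libraries, which is at percentile 21.5 of all genes. Per kilobase it ran from 11.2 to 18.9 in pseudo-islets and from 17.4 to 27.3 in pseudo-beta. The other enzymes around ornithine, proline and glutamate were mostly far above it on this scale. *Pycr1* and *Pycr3*, whose products make proline from the product of ornithine aminotransferase, had means of 417 and 482 per kilobase. *Aldh18a1*, which encodes the enzyme that makes the same intermediate from glutamate, had 560.1, and *Aldh4a1*, whose product carries it on to glutamate, had 43.7. These genes, and *Gls2*, were named after their levels had been seen.

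None of the 11 measured genes of this list was called with or without the block (lowest adjusted p = 0.932 without it and 0.435 with it, in limma), and 0 had an unadjusted p under 0.05 in either fit. Their log2 fold changes ran from -0.53 for *Aldh4a1* to 1.51 for *Gls2*, with a median of 0.07 against 0.01 for all genes. *Gls2* was near the floor, with 15.6, 11.4 and 9.29 normalized counts in pseudo-islets, against 0, 12.3 and 5.84 in pseudo-beta. Its log2 differences in experiments 35, 36 and 37 were 4.06, -0.11 and 0.59, so the 1.51 (SE 0.99) rests largely on the value of 0. *Aldh4a1* had 111, 105 and 148 normalized counts in pseudo-islets, against 166, 197 and 160 in pseudo-beta. Its groups did not overlap, as for 5.13% of all genes in the same direction, and its unadjusted p in limma was 0.0653. For 5 of the 11 genes the 95% interval lay within a 1.5-fold change in either direction, and for 7 with the block.

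*Sncb* and *Shfl* were the genes whose pattern over the 6 libraries was most like that of *Oat*. The Pearson correlations were 0.996 and 0.990, among the 10577 genes whose mean reached 50 normalized counts, and 17 genes were over 0.95. The 6 points share 3 experiments, and so many genes were compared that values of this kind are a description only. *Sncb*, which encodes beta-synuclein, had 269, 363 and 279 normalized counts in pseudo-islets, against 338, 456 and 356 in pseudo-beta.

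For the enzymes and carriers that stand next to *Ldha* and *Slc16a1*, several rows exist. *Ldhb*, the other main subunit of lactate dehydrogenase, had 500.1, 602 and 467 normalized counts in pseudo-islets, against 634, 643 and 612 in pseudo-beta. All 3 pseudo-beta libraries were above all 3 of pseudo-islets, as for 5.13% of all genes. The log2 fold change was -0.27 (SE 0.17), with an adjusted p = 0.976 in limma, so it did not pass. Per kilobase, *Ldhb* had a mean of 442 normalized counts, at percentile 84.3 of all genes. *Bsg*, which encodes the chaperone that carries monocarboxylate transporters to the membrane, was among the most abundant genes, with 13486, 15865 and 14295 normalized counts in pseudo-islets, against 14936, 15142 and 13704 in pseudo-beta. The fitted log2 change was -0.01, with a 95% interval from -0.26 to 0.25. *Slc16a3* and *Slc16a7*, which encode further monocarboxylate transporters, have no row.

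Pyruvate enters the mitochondria through a carrier made of the products of *Mpc1* and *Mpc2*. *Mpc1* had 3917, 4204 and 3761 normalized counts in pseudo-islets, against 3385, 3059 and 3781 in pseudo-beta, for a log2 fold change of 0.22 (SE 0.13). *Dlat*, a subunit of pyruvate dehydrogenase, had 1410, 1440 and 1241 in pseudo-islets, against 1403, 1136 and 774 in pseudo-beta. *Pcx*, pyruvate carboxylase, had 506, 510.0 and 904 in pseudo-islets, against 620, 645 and 1074 in pseudo-beta. With the block, their log2 fold changes of 0.22, 0.34 and -0.29 had an unadjusted p in limma of 0.0457, 0.026 and 0.0391, and none was called. In the whole list of 16 measured genes, 10 were higher and 6 lower in pseudo-islets, the median log2 fold change was 0.03, and 0 were called in either fit. Scaling without the 10 most abundant genes gave 6 higher and 10 lower, with a median of -0.03. That scaling moves the median of all genes by -0.058, as much as that of this list, so neither split is a direction of the list.

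Among the genes that surround *Hk1*, 4 of 7 have a row. *Hk2* and *Hk3*, which encode the other high-affinity hexokinases, have no row, as *Hk1* has none. *Slc2a2*, which brings glucose into the cell, had 13819, 13639 and 8573 normalized counts in pseudo-islets, against 16491, 15860 and 8690 in pseudo-beta, so that experiment 37 was low in both groups, and its log2 fold change was -0.16 (SE 0.26 and 0.07 with the block).

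*G6pc2*, which encodes the glucose-6-phosphatase of beta-cells, which reverses the hexokinase step, had 52404, 56012 and 55730 normalized counts in pseudo-islets, against 47477, 48039 and 44075 in pseudo-beta. All 3 pseudo-islets libraries were above all 3 of pseudo-beta, which was the case for 5.63% of all genes. The log2 fold change was 0.23 (SE 0.10), and the adjusted p in limma was 0.92 without the block and 0.15 with it.

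*Acot8*, *Acot9* and *Acot13* encode thioesterases of the peroxisome and of the mitochondria. *Acot13* had the highest level of the family, with a mean of 2551 normalized counts per kilobase, followed by *Acot8* at 150 and *Acot9* at 57.4. Their log2 fold changes were 0.15, 0.19 and 0.07, with standard errors of 0.20, 0.23 and 0.36. Of the 7 measured members of the family 6 were higher in pseudo-islets and 0 were called in either fit (lowest adjusted p = 0.928 without the block and 0.461 with it, in limma). Over all genes, 6955 of 13535 were higher, and the split of the family was not tested. *Acot2*, *Acot4* and *Acot6* are close copies of other genes of the family, and how reads were shared among them is uncertain.

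Of the SMAD genes, *Smad2* encodes the partner of SMAD3 downstream of TGF-beta, *Smad4* the shared partner and *Smad7* an inhibitor. *Smad2* had 508, 615 and 423 normalized counts in pseudo-islets, against 447, 477 and 398 in pseudo-beta, for a log2 fold change of 0.21 (SE 0.20). The log2 fold changes of *Smad4* and *Smad7* were -0.22 (SE 0.29) and 0.09 (SE 0.32). *Smad9*, which encodes a transducer of BMP signals, had 12.5, 8.33 and 31.6 in pseudo-islets, against 63.9, 31.7 and 52.3 in pseudo-beta. All pseudo-beta libraries were above those of pseudo-islets, by a narrow margin between 31.7 and 31.6, and 5.13% of all genes had such a gap. Its log2 fold change was -1.60 (SE 0.56), with an unadjusted p = 0.0174 and an adjusted p = 0.862 in limma, and an adjusted p = 0.244 with the block, so it was not called. None of the 6 SMAD genes was.

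*Mgst3*, the measured relative of *Mgst1* among microsomal glutathione transferases, had 215, 296 and 285 normalized counts in pseudo-islets, against 212, 324 and 321 in pseudo-beta, and the fitted log2 change was -0.09 (SE 0.24). Around *Aldh1a3*, the related genes *Aldh1a1* and *Aldh1a2* have no row. Of the 7 measured genes of retinoic acid metabolism and signalling, 6 were lower in pseudo-islets, the median log2 fold change was -0.43 and 0 were called in either fit. Without the block, 0 of the 7 had an unadjusted p under 0.05 in limma. Over all genes, 6580 of 13535 were lower and the median was 0.01, and the split of this list was not tested. The gene that was higher was *Rdh11*, a retinol dehydrogenase gene, with 495, 522 and 394 in pseudo-islets, against 481, 353 and 272 in pseudo-beta. The fitted log2 change was 0.38 (SE 0.24), and the adjusted p was 0.404 with the block in limma.

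**Figure D3:**
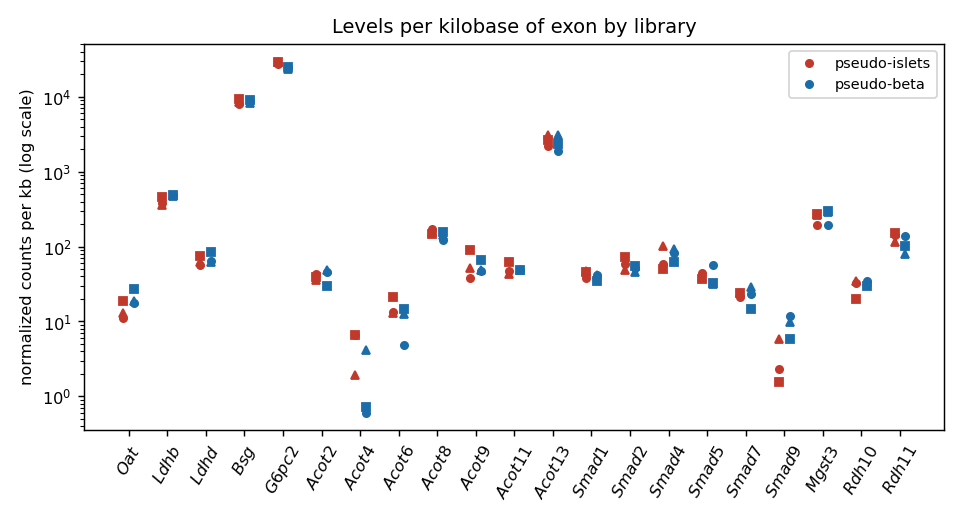
Normalized counts per kilobase of exon on a log axis for *Oat* and for measured relatives of the 8 genes, with pseudo-islets in red and pseudo-beta in blue and circles, squares and triangles for experiments 35, 36 and 37. *Oat* runs from 11.2 to 27.3, below *Ldhb* and *Bsg* in each library.

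Of the 8 other disallowed genes with a row, 4 were higher and 4 lower in pseudo-islets, the log2 fold changes had a median of -0.14 and 0 were called in either fit. *Tgm2*, a transglutaminase gene, had 8.64, 5.20 and 2.04 normalized counts in pseudo-islets, against 20.1, 12.7 and 35.7 in pseudo-beta. It reached 10 normalized counts in the 3 pseudo-beta libraries only, so it has a row through the group where it was high. Its fold change of -1.96 on the log2 scale (SE 0.71, adjusted p = 0.872 in limma) and the gap between its groups are partly set by that, and nothing is read from them. *Ckb*, the brain-type creatine kinase gene, had the highest level of this list, with a mean of 1490 per kilobase and a log2 fold change of 0.15 (SE 0.13). It was named after its level had been seen.

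Of the 11 measured genes linked to dedifferentiation or progenitors, 5 were higher and 6 lower in pseudo-islets, the median log2 fold change was -0.06 and 0 were called in either fit. *Neurog3*, the gene of the transcription factor that marks endocrine progenitors and named after its values had been seen, had 9.97, 21.4 and 21.9 normalized counts in pseudo-islets, against 12.6, 29.7 and 35.4 in pseudo-beta. It was lower in pseudo-islets in 3 of 3 experiments, with a log2 fold change of -0.48 (SE 0.58) and an adjusted p = 0.998 in limma. *Id1* and *Id3* encode inhibitors of helix-loop-helix factors. *Id1* had 38.3, 11.5 and 83.6 in pseudo-islets, against 14.2, 3.77 and 39.4 in pseudo-beta. *Id3* had 2791, 1839 and 2907 in pseudo-islets, against 3961, 2134 and 3107 in pseudo-beta. Their log2 fold changes were of opposite sign, 1.27 and -0.27, and with the block the adjusted p was 0.359 and 0.314 in limma.

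The 16 genes of mature beta-cell function hold the 1 call found among the 84 related genes. That call was made with the block, where 0.539% of all genes were called. Without the block 0 of the 84 were called, against 0.0591% of all genes. *Ero1b*, which encodes an oxidase that helps proinsulin form disulfide bonds, had 27724, 31789 and 30096 normalized counts in pseudo-islets, against 19067, 22656 and 19420 in pseudo-beta. All pseudo-islets libraries were above all of pseudo-beta, as for 5.63% of all genes. The log2 fold change was 0.55 (SE 0.12), with an adjusted p = 0.372 in limma without the block and 0.00204 with it, so the estimate was the same in both fits and *Ero1b* passed the test with the block only. *Isl1*, an islet transcription factor gene, had 4075, 3724 and 4168 in pseudo-islets, against 5325, 5179 and 4357 in pseudo-beta, for a log2 fold change of -0.31 (SE 0.13) with an adjusted p = 0.901, and 0.224 with the block. *Pax6*, *Slc30a8*, the zinc transporter gene, and *Glp1r*, the GLP1 receptor gene, had log2 fold changes of -0.20, -0.31 and -0.16, and *Trpm5*, an ion channel gene, had 0.30. With the block their adjusted p ran from 0.166 to 0.362 in limma. In the list, 11 genes were lower and 5 higher in pseudo-islets, and the log2 fold changes had a median of -0.11.

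**Figure D4:**
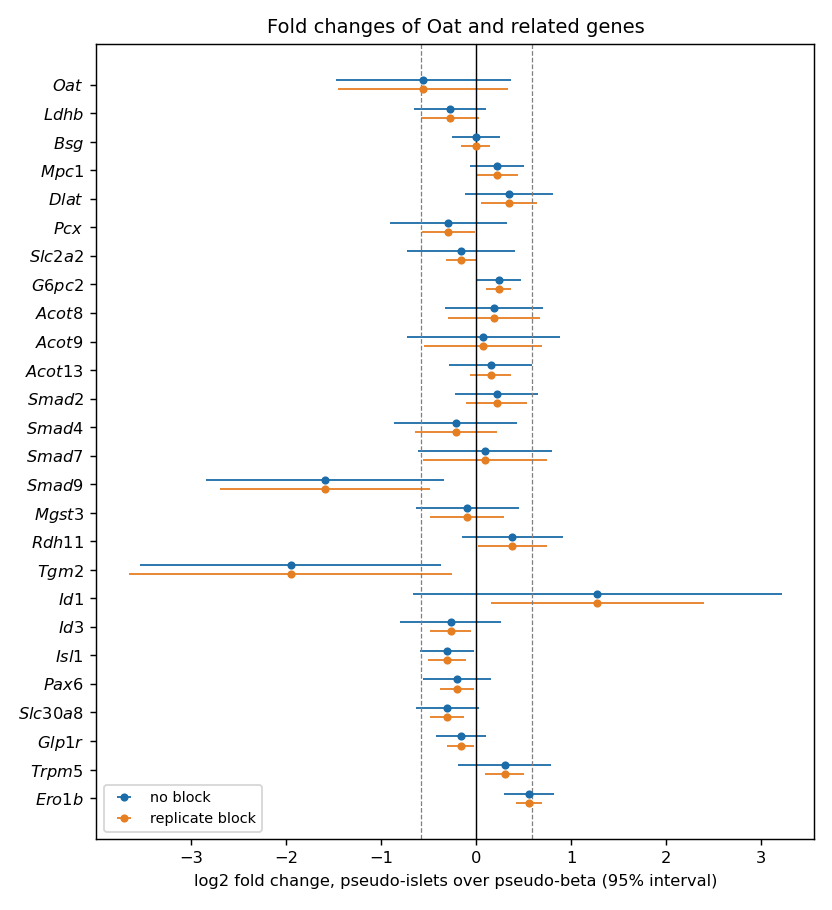
Log2 fold changes of pseudo-islets over pseudo-beta with 95% intervals from limma, in blue without and in orange with the replicate block, for *Oat* and the related genes described. Dashed lines mark a 1.5-fold change, and the interval of *Oat*, from -1.48 to 0.36, spans 0.

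Among the 84 distinct related genes of all lists, 42 were higher and 42 lower in pseudo-islets, and the log2 fold changes had a median of -0.0021. After scaling without the 10 most abundant genes, 35 were higher and 49 lower, since that scaling moves the median of all genes by -0.058. Without the block, 5.95% had an unadjusted p under 0.05 in limma, against 5.40% of all genes. These were 2 genes that were higher in pseudo-islets and 3 that were lower, and the shares over all genes were 2.73% and 2.67%. With the block, 19.0% had such a p, against 11.9% of all genes, with 7 genes higher and 9 lower, and over all genes the shares were 6.69% and 5.22%. The genes of mature beta-cell function made up much of this, with 8 of 16 (3 higher and 5 lower), and among the other 68 genes 8 had such a p, or 11.8%. Among the 84 genes, the groups did not overlap for 3 that were higher and 7 that were lower. Over all genes the shares were 5.63% and 5.13%, or 10.8% in either direction. *Tgm2*, which has a row through the group where it was high, is among the 7. It is also among the lower genes with an unadjusted p under 0.05 in limma, with and without the block. These counts are therefore a description and not a result about the related genes. Genes on the opposite strand overlap *Tgm2*, *Mpc1*, *Pcx*, *Slc2a2*, *Acot4*, *Acot8*, *Gls2*, *Pax6*, *Glp1r*, *Smad4*, *Neurog3* and *Trpm5*. Their reads cannot be told apart where counting did not use strand.

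*Ins2*, the insulin gene that defines beta-cells, had 5405330 to 5971280 normalized counts in the 6 libraries. The sort removed cells with the blood or endothelial surface markers CD45, TER119 and CD31. Markers of other cell types were summed per library. Markers of alpha-cells (8 of 12 with a row) summed to 29825 to 36515 in pseudo-islets and 26271 to 27254 in pseudo-beta, most of it *Tm4sf4*. Those of delta-cells (2 of 8) summed to 369 to 532 and 249 to 273, and in pseudo-beta nearly all of it was *Rbp4*. PP-cell markers (3 of 4) summed to 876 to 5757 and 508 to 2687. Ductal markers (5 of 8) summed to 6003 to 6483 and 4764 to 7246, most of it *Krt7*. *Tm4sf4*, *Rbp4* and *Krt7* had log2 fold changes of 0.09, -0.05 and 0.01. The alpha-cell, delta-cell and ductal sums therefore do not measure how many such cells were present. Immune markers (2 of 10) summed to 1656 to 2675 and 988 to 1416, nearly all of it *C1qa*. The other 8 immune markers, *Ptprc* and *C1qb* among them, have no row, so this sum is not shown to come from immune cells. The endothelial marker with a row (1 of 8) had 41.4 to 74.4 and 56.5 to 89.5. The 12 acinar and 8 stromal markers have no row. Of the defining markers, *Gcg* had 1763, 941 and 2094 normalized counts in the pseudo-islets libraries but 36.1, 14.1 and 0 in pseudo-beta. *Sst* had 190, 146 and 210 in the former and 0, 0 and 4.74 in the latter. The sums of alpha-cell, delta-cell, PP-cell and immune markers were higher in pseudo-islets in 3 of 3 experiments, although the ranges of the PP-cell sums overlapped. In limma, *Gcg* and *Sst* passed in both fits. Their adjusted p was 0.0437 and 0.0189 without the block, and 0.00148 and 0.000734 with it. The hormone genes of PP-cells, *Ppy* and *Pyy*, passed in the block fit only (adjusted p = 0.00267 and 0.0259 in limma). So did the alpha-cell marker *Ttr* and *C1qa* (adjusted p = 0.0303 and 0.00305). Over all genes, 0.539% passed in that fit, and 0.0591% in the other. *Oat* was lower in pseudo-islets in 3 of 3 experiments, and the part of other cell types in its values was not tested.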

How the data were processed

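Beta-cell RNA (5 ng per library, ribosomal RNA depleted, read pairs of 75 bases) from 3 samples of pseudo-islets and 3 of pseudo-beta was aligned to GRCm38 by the authors with STAR 2.7.6a and quantified with RSEM 1.3.1. The deposited signal is gene counts normalized with DESeq2 1.26.0, summing to between 17994346 and 19635287 per library. Low values are whole multiples of 1 step for 26.7% to 42.8% of such values in a library, so no count test was run. The table also holds the authors' fold changes and p-values, which were not used. A filter on low genes and the use of strand are not given in the sources used here.

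Values were compared as log2(value + 1) with limma 3.58.1 (R 4.3.3), with a trended prior variance, no block and p-values adjusted by Benjamini and Hochberg over 13535 genes. Levels per kilobase used the union of exons in the basic GENCODE M21 annotation. Coordinates are from the same release. Symbols not in it were matched through RefSeq synonyms. The numbers 35, 36 and 37 were taken to pair the samples. Deviations from the group means correlated at 0.119, 0.121 and 0.325 within experiments (minimum 0.1). Between experiments the correlations ran from -0.203 to 0.0922, the highest for pseudo-islets 35 against pseudo-beta 36. For experiments 35 and 36 the values therefore show the pairing only weakly. The study counts each sample as an independent biological one. The fit was tested on simulated data. The 8 genes and all lists were chosen with earlier results of these data known. Related genes were named when they are direct family partners of the 8 genes or had an unadjusted p under 0.05 in either fit, and others are marked in the text. Some genes of the lists are counted but not reported here by name. The alternatives for these related genes were chosen after seeing the data.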

Additional observations from a re-analysis of the deposited data

How the results depend on the processing

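The log2 fold change of *Oat* was below 0 under all 16 alternatives, from -0.77 without the pseudo-islets of experiment 36 to -0.37 without the pseudo-beta of experiment 36. Its unadjusted p in limma ran from 0.0869 (no trend in the prior variance) to 0.459 and its adjusted p from 0.646 to 1.00. The number of the 8 genes called was 0 in each, with 0 at an unadjusted p under 0.05. The alternatives gave no value for the 7 genes without a row. The count of all genes called, 8, moved to 73 with the replicate block, to 2 after scaling without the 10 most abundant genes, after quantile normalization and without the trend, and to 1 with a pseudocount of 0.1, and the cause was not tested. Single libraries left out gave 0 to 13 genes. It was 0 when a pseudo-islets library, or pseudo-beta 35, was dropped (501 to 794 genes at an unadjusted p under 0.05), 1 when pseudo-beta 36 was, and 13 when pseudo-beta 37 was. The replicate block gave 28, 73 and 45 genes when experiment 35, 36 or 37 was dropped.

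The same alternatives, chosen after seeing the data, were run for 25 related genes named in the text. The sign was kept by 19 of them in each one that could be run. *Tgm2*, from which nothing is read, is 1 of the 19. Of the 19, 13 moved by over 1.5 times when 1 library was left out, none of them called in the fits without the block. The ranges were 0.11 to 0.54 for *Dlat*, -0.57 to -0.040 for *Pcx*, 0.15 to 0.30 for *Mpc1*, -0.52 to -0.0069 for *Smad4*, 0.078 to 0.35 for *Smad2*, 0.090 to 0.28 for *Acot8*, 0.18 to 0.59 for *Rdh11*, 0.48 to 2.02 for *Id1*, -0.51 to -0.062 for *Id3*, -0.34 to -0.065 for *Pax6*, -0.47 to -0.18 for *Slc30a8*, -0.22 to -0.086 for *Glp1r* and 0.14 to 0.52 for *Trpm5*. *Ero1b* was called in the 4 fits with the block, with an adjusted p from 0.00158 to 0.0244 in limma, and in no other. *Slc30a8* was called in the block fit without experiment 37, at -0.44 with an adjusted p = 0.0263. The sign turned for 6 genes, none of them called. Leaving out single libraries moved *Acot13* between -0.026 and 0.33, *Acot9* between -0.27 and 0.35, *Bsg* between -0.070 and 0.047, *Mgst3* between -0.30 and 0.051, *Slc2a2* between -0.46 and 0.062 and *Smad7* between -0.17 and 0.30. The libraries whose absence turned the sign were pseudo-beta 35 for *Acot13*, *Acot9* and *Bsg*, pseudo-beta 36 for *Bsg*, *Mgst3* and *Smad7*, pseudo-beta 37 for *Mgst3*, pseudo-islets 35 for *Bsg* and *Mgst3*, pseudo-islets 36 for *Acot9*, and pseudo-islets 37 for *Bsg* and *Slc2a2*. In the block fits, *Acot9* was at -0.11 and *Smad7* at -0.20 without experiment 36, and *Bsg* at 0.064 without experiment 35. *Id1*, *Smad9* and *Tgm2* have no value at a minimum of 10 normalized counts in every library.

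Genes of 20 to 80 normalized counts, such as *Oat*, had a median SE of 0.47 without and 0.44 with the block, against 0.27 and 0.21 over all genes. The counting SE of *Oat* was 0.20 if a step is 1 read, below its fitted 0.41 and 0.40. The latter rests largely on other genes.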
